A study of Mus musculus with 16 samples.

Results

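The mitochondrial genome of the mouse is a small circle that is transcribed inside the organelle, and pieces of it have been copied into the nuclear chromosomes. The 43 gene models described here, of 57010 in the deposited table, are the 37 whose symbol begins with mt- and 6 nuclear copies of mitochondrial genes (Gm28437, Gm28661, Gm10925, Gm29216, Gm28438 and Gm10222). They were chosen by name, with earlier results of these data known. The 37 comprise 13 protein genes, 2 ribosomal RNA (rRNA) genes and 22 transfer RNA (tRNA) genes.

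They were measured by RNA sequencing in heart cells labelled cardiomyocyte, isolated from adult wild-type C57BL/6 mice. The 16 libraries form 4 groups of 4: PRODH TAC, vector TAC, PRODH sham and vector sham. PRODH stands for mice injected with AAV9-PRODH, an adeno-associated virus of serotype 9 that carries proline dehydrogenase, a mitochondrial enzyme of proline breakdown. Vector stands for mice given AAV9-Vector, so every group carries a virus and no group is uninjected. TAC is transverse aortic constriction, which loads the heart with pressure. Sham is the control operation. Surgery followed the injection by 3 weeks, and cells were collected 4 weeks after surgery. The design text calls the overexpression specific to the heart but names no promoter. Whether each library is a mouse of its own is not stated in the labels. The p-values below therefore describe the variation among these libraries, part of which may be technical.

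Mitochondrial DNA encodes core subunits of 4 complexes of oxidative phosphorylation, the rRNAs of the mitochondrial ribosome and a set of tRNAs. Both strands are transcribed as long precursors, which are cut at the tRNAs that separate most genes. The open reading frames of mt-Atp8 and mt-Atp6 stay together in a shared messenger RNA, and so do those of mt-Nd4l and mt-Nd4. Cardiomyocytes are packed with mitochondria, and these RNAs are among the most abundant in heart tissue.

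The 6 copies form a colinear block on the minus strand of chromosome 1, at chr1:24612407-24616197 in the GRCm38 build of the GENCODE M21 annotation. All of them are annotated there as unprocessed pseudogenes. All 43 gene identifiers were found in that annotation, with the same transcript lengths as in the deposited table. Which build the authors used is not stated in the labels. Of 3273 bases compared between the copies and their mitochondrial genes, 3266 were identical, and 4 of the 6 copies had no difference. Gm28437 matches mt-Co3 over 783 bases, Gm28661 matches mt-Co2 over 681, Gm10925 matches mt-Atp6 over 678 and Gm10222 matches mt-Nd4l over 294. A read that lies inside such a match cannot be assigned to the chromosome or to the organelle by its sequence.

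The pair of mt-Nd4l (chrM:9877-10173, plus strand) and Gm10222 (chr1:24612407-24612700, minus strand) is printed whole, because the largest log2 difference between PRODH and vector after TAC among the 25 genes tested was that of Gm10222. The capitals are the 3 bases of mt-Nd4l that lie past the end of the copy.
mt-Nd4l: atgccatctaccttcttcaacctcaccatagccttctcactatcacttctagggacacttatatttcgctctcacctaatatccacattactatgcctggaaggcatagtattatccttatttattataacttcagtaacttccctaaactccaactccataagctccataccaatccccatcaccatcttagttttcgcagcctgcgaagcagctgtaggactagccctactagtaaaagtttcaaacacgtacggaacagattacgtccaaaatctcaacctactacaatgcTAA
Gm10222: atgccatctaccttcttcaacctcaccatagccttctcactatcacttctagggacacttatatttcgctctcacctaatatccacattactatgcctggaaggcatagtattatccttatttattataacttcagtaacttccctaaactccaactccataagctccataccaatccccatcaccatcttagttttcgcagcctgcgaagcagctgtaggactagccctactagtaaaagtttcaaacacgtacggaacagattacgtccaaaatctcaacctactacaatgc

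The first 60 bases of mt-Nd3 (chrM:9459-9518, plus strand) and Gm28438 (chr1:24613060-24613119, minus strand) hold the 1 base at which this pair differs over 345 bases. The capital marks it (T3C, counted from the 5′ end of mt-Nd3, with the mitochondrial base first).
mt-Nd3: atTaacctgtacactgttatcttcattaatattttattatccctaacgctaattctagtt
Gm28438: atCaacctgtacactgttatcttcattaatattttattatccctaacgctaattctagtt

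Gm29216 covers only bases 1054 to 1545 of mt-Co1. The stretch shown (chrM:6381-6440, plus strand, and chr1:24616138-24616197, minus strand) holds all 6 differences of the pair in capitals, and the 479 bases after the last of them are identical.
mt-Co1: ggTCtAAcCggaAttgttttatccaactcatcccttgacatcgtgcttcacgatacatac
Gm29216: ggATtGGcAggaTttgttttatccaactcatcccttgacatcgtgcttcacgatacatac

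The end of mt-Atp8 (chrM:7870-7969) and the start of mt-Atp6 (chrM:7927-8026), both on the plus strand, are shown because these neighbours share a messenger RNA and their values are set side by side below. Their reading frames overlap by 43 bases, given in capitals. No copy of mt-Atp8 was among the gene models matched.
mt-Atp8: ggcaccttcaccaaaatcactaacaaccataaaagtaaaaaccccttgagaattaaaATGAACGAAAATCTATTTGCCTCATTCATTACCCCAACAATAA
mt-Atp6: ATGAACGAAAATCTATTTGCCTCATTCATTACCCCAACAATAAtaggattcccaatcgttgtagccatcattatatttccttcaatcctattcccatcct

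Library totals ran from 15987580 to 22680212 counts, of which the 43 genes took more than every other gene together. Prodh, the mouse gene of proline dehydrogenase, stood at 12.3 to 14.7 CPM (the usual depth-normalised count, with library sizes scaled by TMM) in PRODH TAC and 6.19 to 8.38 CPM in vector TAC. It stood at 12.6 to 14.8 CPM in PRODH sham and 10.4 to 11.5 CPM in vector sham. The log2 difference between PRODH and vector was 0.90 after TAC (edgeR adjusted p = 2.19e-08) and 0.33 after sham, where it did not pass (adjusted p = 0.0517). Under vector Prodh fell by 0.58 after TAC (adjusted p = 2.58e-05). Whether the sequence in the virus is counted at this gene is not stated in the labels. The summed level of 10 cardiomyocyte markers was 33963 to 38068 CPM in PRODH TAC, 32603 to 34610 CPM in vector TAC, 42497 to 48305 CPM in PRODH sham and 43730 to 48071 CPM in vector sham, so the defining markers of the labelled cell type were present in every library. Markers of other cell types moved with the groups. The 12 fibroblast markers summed to 637 to 811 CPM in PRODH TAC, 2174 to 2418 CPM in vector TAC, 441 to 470.2 CPM in PRODH sham and 313 to 481 CPM in vector sham. The 12 endothelial markers summed to 807 to 926 CPM in PRODH TAC, 1098 to 1247 CPM in vector TAC, 637 to 685 CPM in PRODH sham and 582 to 708 CPM in vector sham. The 11 myeloid markers summed to 206 to 252 CPM in PRODH TAC, 370.4 to 401 CPM in vector TAC, 190 to 232 CPM in PRODH sham and 126 to 202 CPM in vector sham. The 9 mural cell markers summed to 489 to 557 CPM in PRODH TAC, 522 to 580 CPM in vector TAC, 415 to 448 CPM in PRODH sham and 426 to 447 CPM in vector sham, and the 5 red cell markers to 107 to 123 CPM, 223 to 300.3 CPM, 64.7 to 89.3 CPM and 108 to 185 CPM in the same order of groups. The 6 lymphoid markers together did not exceed 1.46 CPM in any library. In such bulk samples fewer cells of a type and less RNA per cell cannot be told apart, and the part of these markers in the results on mitochondrial genes was not tested.

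The first measurement was the share of each library that fell on the 43 genes, which needs no scaling factor. It was lower after TAC under either virus. The libraries gave 54.7%, 54.7%, 55.7% and 54.9% in PRODH TAC, 53.2%, 54.8%, 55.3% and 55.8% in vector TAC, 60.7%, 59.2%, 60.7% and 63.0% in PRODH sham, and 60.8%, 58.5%, 62.9% and 62.4% in vector sham. All 8 TAC libraries lay below all 8 sham libraries, and the PRODH and vector libraries overlapped after either operation. Under vector the TAC share was 54.8% ± 1.16 against 61.2% ± 1.95 after sham (SD, n = 4), a difference of -6.37 percentage points (exact two-sided permutation test, p = 0.0286, the smallest that 4 against 4 libraries allow). Under PRODH it was 55.0% ± 0.490 against 60.9% ± 1.55, a difference of -5.90 points (exact p = 0.0286). PRODH and vector differed by 0.22 points after TAC (exact p = 0.83) and by -0.25 points after sham (exact p = 0.857). The copies alone held 19.6% ± 0.286 of the counts in PRODH TAC, 19.7% ± 0.739 for vector TAC, 21.1% ± 1.16 for PRODH sham and 21.1% ± 0.946 for vector sham (SD, n = 4). The difference from sham was -1.33 points under vector, where the groups overlapped (exact p = 0.0857), and -1.53 points under PRODH, where they did not (exact p = 0.0286). For each count outside the 43 genes there were 1.22 inside for PRODH TAC and 1.21 for vector TAC, and 1.56 for PRODH sham and 1.58 for vector sham.

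**Figure D1:**
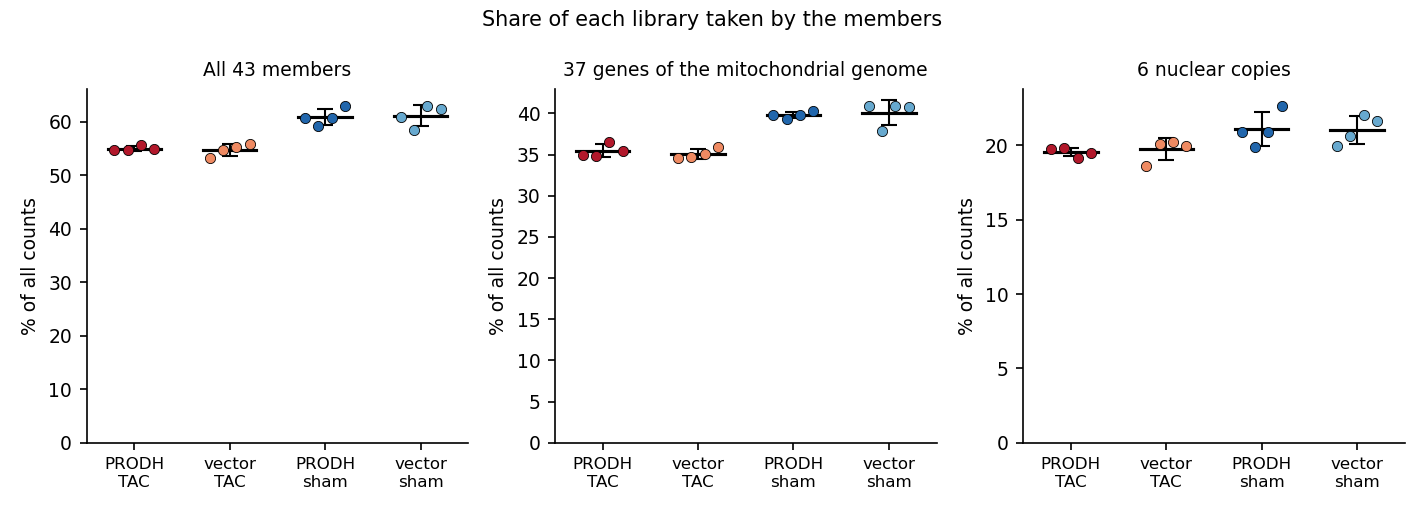
Percent of all counts of a library (vertical axis, from 0) that fell on the 43 genes, on the 37 genes of the mitochondrial genome and on the 6 nuclear copies, by group. Points are libraries, and bars are the mean and SD of 4. For the 43 genes every TAC library lies at 55.8% or less and every sham library at 58.5% or more.

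How the counts of a pair were divided between chromosome and organelle differed widely from pair to pair, although the pairs are nearly identical in sequence. Over the 16 libraries Gm28437 took 90.2% to 93.5% of its pair with mt-Co3, and Gm28661 took 86.8% to 96.2% of its pair with mt-Co2. Gm10925 took 76.7% to 83.3% of its pair with mt-Atp6, and Gm28438 took 68.6% to 77.6% of its pair with mt-Nd3. Gm10222 took 41.0% to 47.9% of its pair with mt-Nd4l, and Gm29216 took 7.05% to 12.7% of its pair with the much longer mt-Co1. Gm28439, a further copy beside the block that repeats 876 bases of mt-Nd4 without a difference, had 0 counts in every library. In exact permutation tests over 4 comparisons between groups no share passed after adjustment over the 6 copies (smallest adjusted p = 0.0857). That says little, since 4 of the 6 would have to reach the smallest possible p of 0.0286 before any could pass. Groups without overlap, each at that p, were found for 4 copies. The share at Gm28661 was 95.9% ± 0.307 in PRODH TAC against 94.3% ± 0.843 in vector TAC and 94.8% ± 0.528 in PRODH sham, and that at Gm29216 was 8.21% ± 0.214 in PRODH TAC against 10.6% ± 1.36 in vector TAC. The share at Gm10925 was 82.4% ± 0.215 in PRODH TAC against 81.1% ± 1.17 in PRODH sham. That at Gm28438 was 76.2% ± 0.916 in vector TAC and 75.5% ± 0.920 in PRODH sham, each against 71.6% ± 2.52 in vector sham (SD, n = 4). The lowest shares of Gm28661, 90.7% and 86.8%, came from vector sham libraries 1 and 2. Where a copy and its mitochondrial gene are added below, the sum is called a pair, since the division within it is uncertain.

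**Figure D2:**
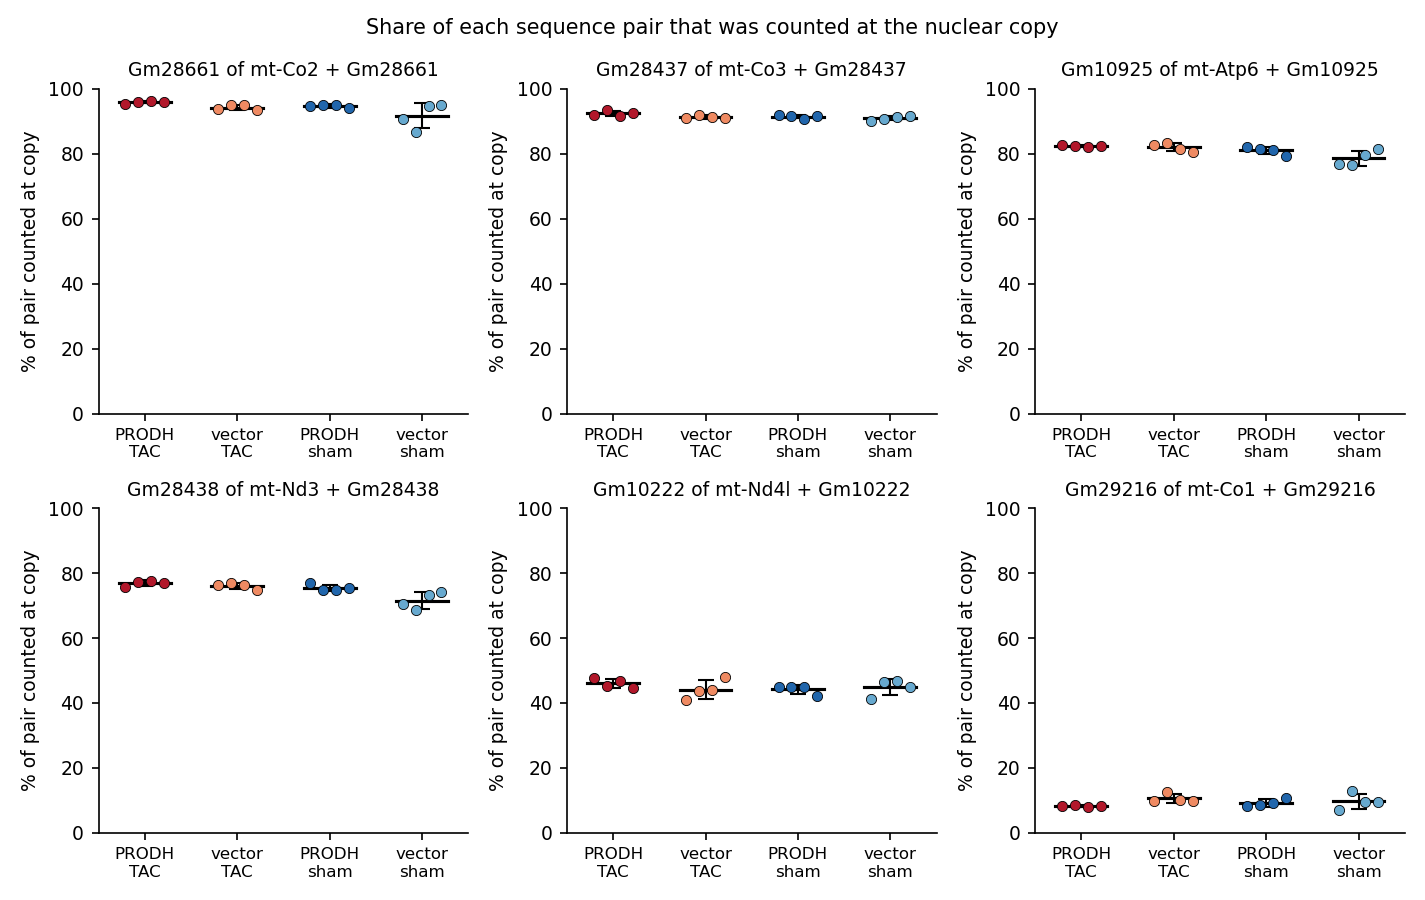
Percent of the summed counts of a pair (vertical axis, 0 to 100) that the deposited table holds at the nuclear copy, by group, with a panel for each of the 6 pairs. Points are libraries, and bars are the mean and SD of 4. The share depends on the pair far more than on the group.

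Levels per length, with each copy added to its mitochondrial gene, differed widely between genes of the same genome. In PRODH TAC the genes of the complex IV subunits mt-Co3 and mt-Co1 stood highest at 101 ± 2.83 and 94.6 ± 5.74 kCPM per kilobase of transcript, where kCPM is the kilo-scale of CPM (SD, n = 4). In vector TAC mt-Co1 stood at 111 ± 15.7 and mt-Co3 at 104 ± 11.9 kCPM per kilobase, so these neighbours in the order did not differ beyond their spread. In vector sham mt-Co1 stood at 146 ± 8.45, mt-Co3 at 137 ± 9.64, the third complex IV gene mt-Co2 at 115 ± 1.4 and the ATP synthase gene mt-Atp6 at 73.2 ± 7.16 kCPM per kilobase. The complex I gene mt-Nd1 (55.0 ± 4.02) and the complex III gene mt-Cytb (50.6 ± 3.21) followed there, then mt-Nd3 (35.6 ± 6.65) and mt-Nd4 (30.2 ± 3.19). Lower still were mt-Nd2 (29.3 ± 1.42), mt-Atp8 (13 ± 3.60), mt-Nd5 (10.8 ± 1.51), mt-Nd6 (10.6 ± 0.794) and mt-Nd4l (8.86 ± 0.707). Counts were divided by the whole annotated length. The shortest of these genes, mt-Atp8 (204 bases) and mt-Nd4l (297 bases), overlap the neighbours with which they share a messenger RNA. How length and overlap affect their counts was not tested, so their values do not measure a difference within that messenger RNA. The large ribosomal RNA, mt-Rnr2, stood at 5.26 ± 0.0539 kCPM per kilobase in PRODH TAC, 4.69 ± 0.435 in vector TAC, 7.01 ± 0.638 for PRODH sham and 5.65 ± 0.721 for vector sham. The small ribosomal RNA mt-Rnr1 was lowest of the 15 in every group, at 3.33 ± 0.128, 3.97 ± 0.374, 5.31 ± 0.745 and 4.81 ± 0.197 kCPM per kilobase in the same order of groups. The 10 highest genes, down to mt-Atp8, were the same in all 4 groups and in the same order apart from mt-Co1 and mt-Co3. Below them mt-Nd4l held place 12 in PRODH TAC, 14 in vector TAC and 13 in both sham groups. The libraries were made with a messenger RNA kit, so the rRNA values describe only what such a kit takes up.

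Of the 43 genes, 25 passed the filter on low counts and entered the tests: all 13 protein genes, both rRNA genes, the 6 copies and 4 tRNA genes. TMM-scaled counts were tested by the quasi-likelihood method of edgeR, and adjusted p-values take in all 14066 genes tested (Benjamini-Hochberg). Log2 fold changes are given with their standard errors (SE).

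One stated aim was to see what TAC does to cardiomyocytes of vector mice. Of the 25 genes, 20 were lower and none was higher, where 26.2% of all tested genes were lower and 30.3% higher (56.5% in either direction). At an unadjusted p under 0.05 none was higher either, and DESeq2 called 19 lower and none higher. The 20 were the 13 protein genes, both rRNA genes and 5 of the 6 copies, with a median log2 fold change of -0.65 for the protein genes, -0.27 for the rRNA genes and -0.39 for the 6 copies, against 0.02 for all tested genes. In 17 of the 25 genes all vector TAC libraries lay below all vector sham libraries and in none above, where 21.1% of all tested genes lay below without overlap and 26.1% above. The call of Gm28438 (-0.34 ± 0.14, adjusted p = 0.0462) was at the threshold. It was lost in 8 of the 16 fits that left out a library (adjusted p up to 0.133), with only the groups compared (adjusted p = 0.104) and with DESeq2 (adjusted p = 0.0503). When libraries were scaled by their size alone, the median of all tested genes moved to 0.37 and 7474 genes were higher and 1198 lower, in place of 4263 and 3686. On that scale 11 of the 25 were lower and none was higher, and mt-Rnr1 (0.08), mt-Rnr2 (0.09) and Gm28438 (0.02) had turned to values above 0 that were still below that median.

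Among the genes of complex I, the entry point of electrons from NADH, the pair of mt-Nd4l and Gm10222 showed the largest log2 change of the 13 protein genes when copies are added to their parents. It stood at 1.55, 1.34, 1.08 and 1.04 kCPM in vector TAC, against 2.58, 2.41, 2.62 and 2.91 kCPM in vector sham. The groups did not overlap, and vector TAC libraries 3 and 4 were the lowest. The pair fell by 1.07 on the log2 scale (± 0.11 SE, edgeR adjusted p = 8.29e-09), with both parts moving alike, at -1.04 ± 0.13 for mt-Nd4l and -1.1 ± 0.10 for Gm10222. Without vector TAC libraries 3 and 4 the value for the pair was -0.86 (adjusted p = 5.81e-08). The partner of mt-Nd4l on the shared messenger RNA, mt-Nd4, stood at 26.0, 33.7, 20.1 and 22.1 kCPM in vector TAC, against 42.4, 35.4, 42.9 and 45.8 kCPM in vector sham, a log2 fold change of -0.71 ± 0.11 (adjusted p = 7.50e-06). These values do not overlap either. Of the other complex I genes, mt-Nd2 (-0.82 ± 0.08) fell most. The genes mt-Nd1 (-0.65 ± 0.08), mt-Nd5 (-0.64 ± 0.09), mt-Nd6 (-0.45 ± 0.09) and the pair of mt-Nd3 and Gm28438 (-0.42 ± 0.13) also fell. The strand used in counting is not stated, so mt-Nd6 and the tRNA genes of the same strand cannot be told apart from reads of the opposite strand.

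Cytochrome b (mt-Cytb), the mitochondrially encoded subunit of complex III, stood at 37, 42.6, 30.6 and 32.1 kCPM in vector TAC, against 56.9, 53.4, 59.3 and 62.0 kCPM in vector sham. The groups did not overlap (log2 fold change -0.70 ± 0.09, adjusted p = 7.93e-08). The complex IV genes fell as pairs, with -0.40 ± 0.09 for mt-Co1 and Gm29216, -0.40 ± 0.09 for mt-Co3 and Gm28437, and -0.67 ± 0.08 for mt-Co2 and Gm28661. Counted alone, mt-Co2 stood at 3.02, 2.62, 2.32 and 3.34 kCPM in vector TAC, against 7.46, 10.3, 4.13 and 3.91 kCPM in vector sham, a log2 fold change of -1.19 ± 0.28 (adjusted p = 0.00247). Its high values came from vector sham libraries 1 and 2, those with the lowest share at Gm28661, and with the copy added the sham libraries were close together at 80.3, 78.1, 79.1 and 78.5 kCPM. The ATP synthase genes fell by 0.44 (± 0.08) for mt-Atp6 with Gm10925 and by 0.53 (± 0.15, adjusted p = 0.00763) for mt-Atp8. The mt-Atp8 groups overlapped, and the call was lost without vector TAC libraries 3 and 4 (-0.54, adjusted p = 0.0621) and under library size alone (-0.16, adjusted p = 0.362).

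The rRNA genes fell as well. The small ribosomal RNA mt-Rnr1 stood at 3.30, 3.78, 4.01 and 4.10 kCPM in vector TAC, against 4.56, 4.44, 4.86 and 4.50 kCPM in vector sham (-0.27 ± 0.08, adjusted p = 0.00696), without overlap. The large one, mt-Rnr2, stood at 6.52, 8.20, 7.45 and 7.52 kCPM in vector TAC, against 9.46, 7.22, 9.55 and 9.49 kCPM in vector sham (-0.27 ± 0.09, adjusted p = 0.0114). Its groups overlapped at vector sham library 2, and the call was lost without vector TAC library 1 (-0.21, adjusted p = 0.0610). Gm29216, the copy that was not called, was at -0.27 ± 0.16 (adjusted p = 0.174). Leaving out vector sham library 1 brought it past the threshold (-0.42, adjusted p = 0.0156).

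Within vector TAC the 4 libraries did not move alike. Libraries 3 and 4 had 192 and 193 kCPM of the mt-Co1 pair, against 152 and 149 in libraries 1 and 2, while their mt-Cytb, mt-Nd4 and mt-Nd4l levels were the lowest of all 16 libraries. As a share of the counts on the mitochondrial genome itself, complex IV genes took 49.9%, 44.9%, 56.6% and 56.0% in vector TAC libraries 1 to 4, and complex I genes took 31.6%, 34.8%, 27.6% and 28.1%. These shares leave out the copies, so they depend on how the pairs were divided. The complex IV share was mostly mt-Co1, at a mean of 48.7% of the 51.8% in vector TAC. In the other 12 libraries complex IV genes took 45.4% to 49.2%, so libraries 1, 3 and 4 lay above that range, the last 2 of them far above, and library 2 lay below it. Each edgeR result below for a mitochondrial gene, copy or pair that rests on vector TAC is therefore also given without libraries 3 and 4 where its call changed. For the nuclear lists only some counts of called genes are given in this way. For single nuclear genes no such value is given, so its absence does not mean that their calls hold without these libraries.

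**Figure D3:**
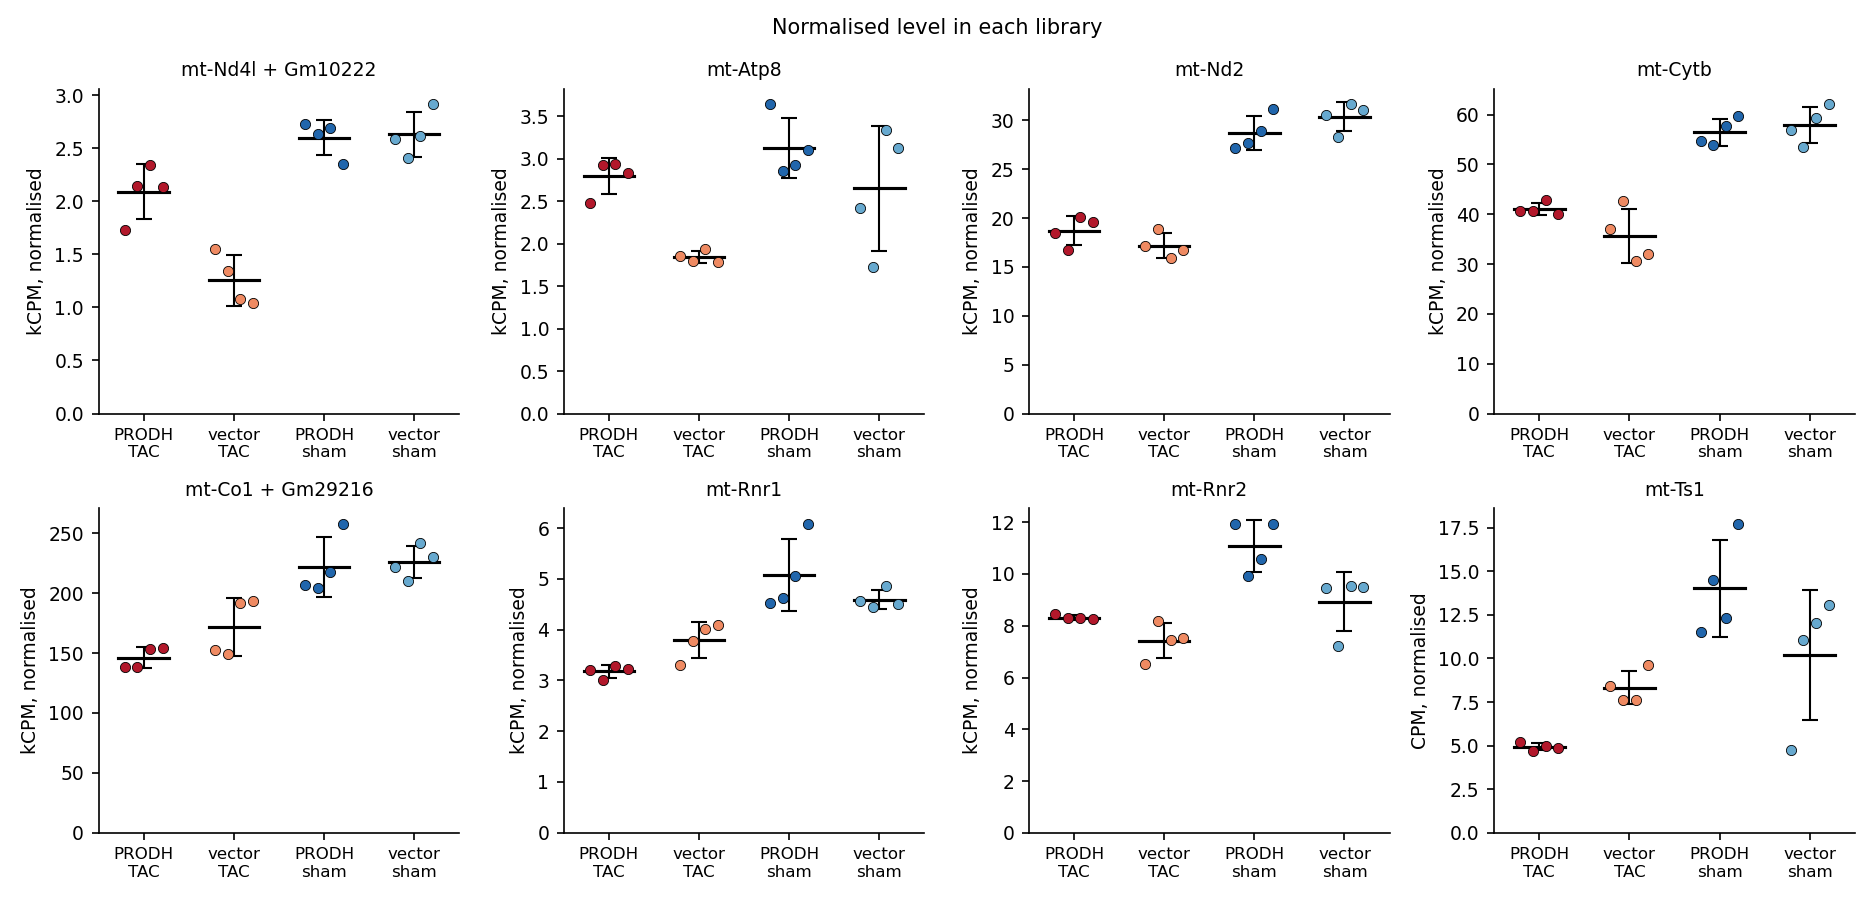
Normalised level in each library (vertical axes from 0, kCPM, and CPM for mt-Ts1) of 8 genes or pairs, by group. Points are libraries in the order 1 to 4, and bars are the mean and SD of 4. The mt-Nd4l pair and mt-Atp8 lie higher in PRODH TAC than in vector TAC without overlap, and mt-Rnr1 and mt-Ts1 lie lower.

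In the same comparison under PRODH the groups share no library with those under vector. Both comparisons come from the same fit of all 16 libraries, with a shared filter, scaling and estimate of spread. Of the 25 genes, 22 were lower after TAC under PRODH and none was higher, where 17.8% of all tested genes were lower and 17.2% higher (35% in either direction). At an unadjusted p under 0.05 there were 23 lower and none higher, and DESeq2 called 22 lower and none higher. All PRODH TAC libraries lay below all PRODH sham libraries in 22 genes and above in none, where 17.4% of all tested genes lay below without overlap and 17.3% above. The 22 called genes were 12 of the 13 protein genes (median of the 13 -0.57), both rRNA genes (-0.55), all 6 copies (-0.41) and the tRNA genes mt-Ts1 and mt-Tq. Scaled by library size alone, the median of all tested genes was 0.40 in place of 0.02, with 7875 genes higher and 311 lower in place of 2425 and 2500. On that scale 10 of the 25 were lower and none was higher, and mt-Nd4l (0.01), Gm10222 (0.11) and Gm28437 (0.01) had turned to values above 0.

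In that comparison mt-Nd2, a complex I subunit, stood at 18.4, 16.8, 20.1 and 19.6 kCPM in PRODH TAC, against 27.2, 27.7, 28.9 and 31.1 kCPM in PRODH sham (-0.62 ± 0.08, adjusted p = 6.75e-07). The pair of mt-Co2 and Gm28661 stood at 47.8, 45.3, 49.9 and 47.5 kCPM in PRODH TAC, against 66.8, 70.6, 76.8 and 86.7 kCPM in PRODH sham (-0.66 ± 0.08). Neither overlapped between the groups. Counted alone, mt-Co2 was at -1.02 ± 0.27 (adjusted p = 0.0115), a call lost without PRODH sham library 4 (-0.83, adjusted p = 0.0501). The exception among the protein genes was mt-Atp8, with 2.48, 2.93, 2.93 and 2.83 kCPM in PRODH TAC, against 3.64, 2.85, 2.92 and 3.10 kCPM in PRODH sham. These groups overlapped (-0.16 ± 0.15, adjusted p = 0.433). The mt-Nd4l pair stood at 1.73, 2.15, 2.34 and 2.14 kCPM in PRODH TAC, against 2.73, 2.63, 2.69 and 2.36 kCPM in PRODH sham. The 4 TAC values lay below the sham values by a small margin, and the change of -0.32 ± 0.11 (adjusted p = 0.0230) was near the threshold. Of the 16 fits that each left out 1 library, 4 called mt-Nd4l and 6 called Gm10222. With the replicate block neither was called (adjusted p = 0.102 and 0.0543). The call of Gm28438 (-0.39 ± 0.14, adjusted p = 0.0372) was lost in 10 of these fits (adjusted p up to 0.209).

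Both rRNA genes fell under PRODH. The small ribosomal RNA mt-Rnr1 stood at 3.20, 3.00, 3.28 and 3.22 kCPM in PRODH TAC, against 4.53, 4.63, 5.06 and 6.09 kCPM in PRODH sham. The groups were far apart (-0.68 ± 0.09, adjusted p = 4.45e-07). The large ribosomal RNA mt-Rnr2 stood at 8.44, 8.28, 8.29 and 8.24 kCPM in PRODH TAC, against 11.9, 9.92, 10.6 and 11.9 kCPM in PRODH sham (-0.42 ± 0.09, adjusted p = 0.000542). The PRODH TAC values were nearly equal in the 4 libraries and lay below all sham values.

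The other stated aim was to compare PRODH with vector mice after TAC. Of the 25 genes, 3 were higher (mt-Nd4l, Gm10222 and mt-Atp8) and 3 lower (mt-Rnr1, mt-Ts1 and Gm29216), where 18.5% of all tested genes were higher and 24.6% lower, so the called share was below that of all genes in either direction. DESeq2 called 5 higher and 3 lower, and at an unadjusted p under 0.05 there were 5 in either direction. PRODH TAC lay above vector TAC without overlap in 4 genes and below it in 4, where 16.7% of all tested genes lay above and 22.6% below. The mt-Nd4l pair stood at 1.73, 2.15, 2.34 and 2.14 kCPM in PRODH TAC and at 1.55, 1.34, 1.08 and 1.04 kCPM in vector TAC. Every PRODH library was above every vector library, and the log2 difference was 0.73 ± 0.11 (adjusted p = 5.83e-06). Counted apart, mt-Nd4l was at 0.68 ± 0.13 (adjusted p = 0.000457) and Gm10222 at 0.81 ± 0.10 (adjusted p = 1.18e-07). These calls held in all 16 fits that left out a library, and without vector TAC libraries 3 and 4 the pair was at 0.53 (adjusted p = 0.000178). For mt-Nd4, which shares the messenger RNA, the difference was 0.13 ± 0.11 (adjusted p = 0.366).

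The gene of the small ATP synthase subunit 8, mt-Atp8, stood at 2.48, 2.93, 2.93 and 2.83 kCPM in PRODH TAC and at 1.85, 1.79, 1.94 and 1.79 kCPM in vector TAC. The groups were apart (0.60 ± 0.15, adjusted p = 0.00470). Of the gene models matched, it shares bases only with mt-Atp6 and the copy Gm10925, over the 43 printed overlap bases. Whether the block on chromosome 1 also holds a copy of mt-Atp8 without a gene model was not examined. Its neighbour mt-Atp6 was at -0.04 ± 0.09 counted alone and at -0.02 ± 0.08 with Gm10925 (adjusted p = 0.893). Whether the change of mt-Atp8 differs from that of mt-Atp6, or mt-Nd4l from mt-Nd4, was not tested. Without vector TAC libraries 3 and 4 the mt-Atp8 value was 0.62, but with 2 libraries on that side it missed the threshold (adjusted p = 0.0549).

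Of the genes that were lower with PRODH after TAC, mt-Rnr1 stood at 3.20, 3.00, 3.28 and 3.22 kCPM in PRODH TAC and at 3.30, 3.78, 4.01 and 4.10 kCPM in vector TAC. The groups were separated by a narrow gap at vector TAC library 1 (-0.26 ± 0.08, adjusted p = 0.0151). The call was lost without vector TAC libraries 3 and 4 (-0.15, adjusted p = 0.237) and held in 11 of the 16 fits that left out a library, failing without PRODH TAC library 2 or 4, vector TAC library 4, PRODH sham library 3 or vector sham library 4. Gm29216 stood at 11.3, 11.7, 12.1 and 12.8 kCPM in PRODH TAC and at 14.7, 18.8, 19.6 and 19.2 kCPM in vector TAC (-0.59 ± 0.16, adjusted p = 0.00842, and -0.48 with adjusted p = 0.127 without vector TAC libraries 3 and 4). The groups did not overlap, but its parent mt-Co1 stood at -0.19 ± 0.10 (adjusted p = 0.106). The pair was at -0.23 ± 0.09 (adjusted p = 0.0452), and that call too was lost without vector TAC libraries 3 and 4 (-0.04, adjusted p = 0.779). Apart from the mt-Nd4l pair, mt-Atp8 and the mt-Co1 pair, no pair or protein gene passed the threshold, from -0.19 ± 0.08 for mt-Nd6 (adjusted p = 0.0628) to 0.21 ± 0.09 for mt-Cytb (adjusted p = 0.0530). Counted gene by gene, mt-Cytb passed upward in 10 of the 16 fits that left out a library and mt-Nd5 in 9, and both passed with DESeq2 (0.23, adjusted p = 0.0190, and 0.20, adjusted p = 0.0311).

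**Figure D4:**
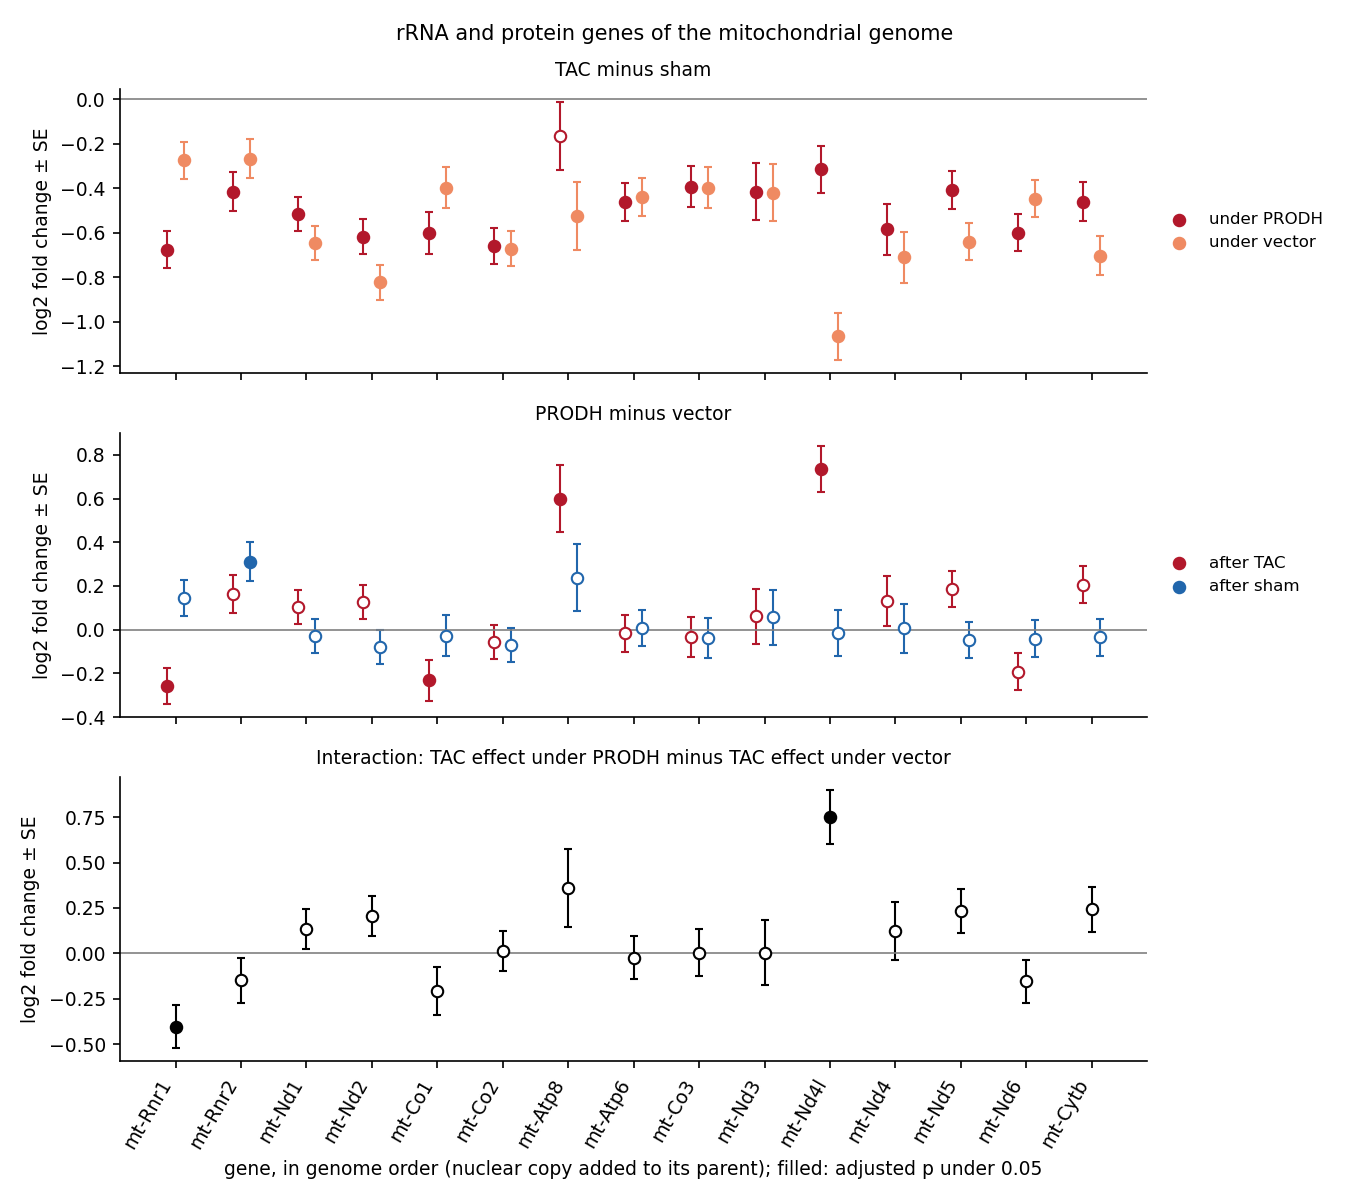
Log2 fold change with SE (vertical axes) of the 2 rRNA and 13 protein genes in genome order, with nuclear copies added to their parents, for TAC minus sham, PRODH minus vector and the interaction. Filled points passed an adjusted p of 0.05. All TAC values lie below 0 under both viruses, with that of mt-Atp8 under PRODH not called. For PRODH after TAC mt-Nd4l and mt-Atp8 stand out upward.

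The difference between the TAC effects under PRODH and under vector was tested as an interaction. Of the 25 genes, 2 passed upward (mt-Nd4l and Gm10222) and 2 downward (mt-Rnr1 and mt-Ts1), where 10.9% of all tested genes passed upward and 15.8% downward (26.8% in all). For the mt-Nd4l pair the interaction was 0.75 ± 0.15 (adjusted p = 0.000589), and it held without vector TAC libraries 3 and 4 (0.55, adjusted p = 0.00284). For mt-Rnr1 it was -0.40 ± 0.12 (adjusted p = 0.0128), a call lost without vector TAC libraries 3 and 4 (-0.30, adjusted p = 0.0917). Leaving out PRODH sham library 4 (-0.25, adjusted p = 0.0704) or vector sham library 4 (-0.34, adjusted p = 0.0564) lost it too. For mt-Atp8 it did not pass (0.36 ± 0.21, adjusted p = 0.234), and it passed without vector sham library 2 (0.57, adjusted p = 0.00175). The other pairs and protein genes lay between -0.20 and 0.24. Without vector TAC libraries 3 and 4, mt-Nd3 counted alone also passed upward (0.40, adjusted p = 0.0387), and its pair with Gm28438 did not (0.21, adjusted p = 0.456).

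After sham, PRODH and vector differed in 1 of the 25 genes, where 2.81% of all tested genes were higher and 2.2% lower. The large ribosomal RNA mt-Rnr2 stood at 11.9, 9.92, 10.6 and 11.9 kCPM in PRODH sham and at 9.46, 7.22, 9.55 and 9.49 kCPM in vector sham. The groups did not overlap, and vector sham library 2 was far below the rest (0.31 ± 0.09, adjusted p = 0.0339). In 2 genes, mt-Rnr2 and mt-Tq, PRODH sham lay above vector sham without overlap and in none below, where 5.25% of all tested genes lay above and 5.17% below. The mt-Rnr2 call was lost without PRODH sham library 1, 3 or 4 or vector sham library 2, and with only the groups compared (adjusted p = 0.0732). No gene was lower by edgeR or DESeq2, and 1 was at an unadjusted p under 0.05. The 13 protein genes, with copies added, lay between -0.08 and 0.24, none of them called.

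The tRNA genes were thinly covered, with 3811 counts over all 16 libraries and 22 genes, or 0.00326% of the counts on the mitochondrial genome. Of these counts 73.6% fell on mt-Ts1, a serine tRNA gene (chrM:6870-6938, minus strand) that overlaps the end of mt-Co1 by 3 bases on the other strand. It is printed because most tRNA counts rest on it.
mt-Ts1: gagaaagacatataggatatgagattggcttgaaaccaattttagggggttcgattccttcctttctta

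The glutamine tRNA gene mt-Tq had 321 counts, the proline tRNA gene mt-Tp 176 and the asparagine tRNA gene mt-Tn 168, and these 4 passed the filter. Below it mt-Tl1 (102), mt-Tc (54) and mt-Te (52) had the most, and 6 tRNA genes had none. The 8 tRNA genes annotated on the minus strand held 3609 counts and all 4 that were tested, and the 14 on the plus strand held 202. Reads of mt-Ts1 were 5.23, 4.71, 5.0 and 4.84 CPM in PRODH TAC, 8.42, 7.64, 7.60 and 9.65 CPM in vector TAC, 11.5, 14.5, 12.3 and 17.7 CPM in PRODH sham, and 4.77, 11.1, 12.0 and 13.1 CPM in vector sham. PRODH TAC lay below vector TAC (-0.75 ± 0.23, adjusted p = 0.0153) and below PRODH sham (-1.50 ± 0.22, adjusted p = 9.7e-05), both without overlap. Vector TAC and vector sham overlapped, with vector sham library 1 as low as PRODH TAC (-0.32 ± 0.22, adjusted p = 0.233). Without that library the value was -0.55 (adjusted p = 0.000503). The interaction was -1.18 ± 0.31 (adjusted p = 0.0112). Without vector TAC libraries 3 and 4 it was -1.13 (adjusted p = 0.0604), and PRODH against vector after TAC was -0.70 (adjusted p = 0.105). For mt-Tq the TAC effect under PRODH was -1.18 ± 0.27 (adjusted p = 0.00120), with 0.764, 0.620, 0.569 and 1.18 CPM in PRODH TAC against 1.58, 1.68, 1.66 and 2.23 CPM in PRODH sham. These groups did not overlap. Neither mt-Tn nor mt-Tp passed in the fit of all libraries, and mt-Tn passed for TAC under PRODH with only the groups compared (-0.87, adjusted p = 0.0421).

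The make-up of the mitochondrial pool, each gene's share of the counts on the mt- genes alone, does not depend on how libraries are scaled to each other. It leaves out the copies, so it does depend on how the counts of the pairs were divided. None of 19 shares of genes and classes passed after adjustment in any comparison between groups (exact two-sided permutation tests, smallest adjusted p = 0.109), but 11 of the 19 would have to reach the smallest possible p of 0.0286 before any could pass. After TAC mt-Atp8 took 0.831%, 1.00%, 0.905% and 0.893% of the pool in PRODH TAC and 0.630%, 0.579%, 0.602% and 0.539% in vector TAC. These groups did not overlap (exact p = 0.0286, adjusted p = 0.109). Likewise without overlap, mt-Nd1 took 11.7% ± 0.242 in PRODH TAC and 10.7% ± 0.369 in vector TAC, and mt-Nd5 took 4.66% ± 0.169 and 4.02% ± 0.214 (SD, n = 4). The rRNA genes took 3.57% ± 0.220 of the pool in vector TAC against 2.94% ± 0.0936 in vector sham, and 3.59% ± 0.160 in PRODH sham against the same vector sham libraries, so vector sham stood lowest of these groups. Both differences were without overlap (exact p = 0.0286), with adjusted p = 0.181 and 0.271.

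Nuclear genes that transcribe and maintain the mitochondrial genome were taken from lists chosen by function. Their counts stand against the shares of all tested genes given above: 26.2% lower after TAC under vector, 17.8% lower and 17.2% higher after TAC under PRODH, and 18.5% higher and 24.6% lower with PRODH after TAC. Of 10 genes for mitochondrial transcription, 9 were lower after TAC under vector (median -0.64), 2 were lower after TAC under PRODH (median -0.08), a share near that of all genes, and 7 were higher with PRODH than with vector after TAC (median 0.43). The interaction called 4 of the 10, all upward, where 10.9% of all tested genes passed upward and 15.8% downward. After sham edgeR and DESeq2 called none between PRODH and vector, with 1 lower at an unadjusted p under 0.05. Their summed level was 125 to 129 CPM in PRODH TAC, 84.8 to 111 CPM in vector TAC, 130.2 to 148 CPM in PRODH sham and 142 to 154 CPM in vector sham. These sums did not overlap between PRODH TAC and vector TAC, while 19 of the 25 mitochondrial genes and copies passed in neither direction between these groups. Without vector TAC libraries 3 and 4, 5 of the 10 were higher with PRODH after TAC. In that setting 1751 of all 14469 genes tested were higher, against 2603 of 14066 in the fit of all libraries.

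Polrmt, the mitochondrial RNA polymerase, averaged 9.88 ± 0.356 CPM in PRODH TAC and 7.88 ± 0.671 CPM in vector TAC (SD, n = 4; log2 difference 0.32 ± 0.09, adjusted p = 0.00516). Tfam, which packs mitochondrial DNA and opens its promoters, averaged 25.7 ± 1.96 CPM in PRODH TAC and 19.1 ± 3.76 CPM in vector TAC (0.42 ± 0.10, adjusted p = 0.00134), against 28.2 ± 2.83 CPM in PRODH sham and 32.2 ± 1.53 CPM in vector sham. For Tfam the PRODH TAC mean lay between those of vector TAC and the sham groups. Tfb2m, a promoter-melting factor, was at 0.29 ± 0.08 and the elongation factor Tefm at 0.53 ± 0.10 for PRODH against vector after TAC. TAC under vector gave -0.47 ± 0.09 for Polrmt, -0.74 ± 0.10 for Tfam, -0.45 ± 0.08 for Tfb2m and -0.77 ± 0.10 for Tefm, while TAC under PRODH gave -0.14 ± 0.09, -0.14 ± 0.10, -0.23 ± 0.08 and -0.01 ± 0.10, of which only Tfb2m passed (adjusted p = 0.0215). The interaction passed for Tfam (0.61 ± 0.14, adjusted p = 0.00206) and Tefm (0.76 ± 0.14, adjusted p = 0.000147), and did not for Polrmt (adjusted p = 0.0574) or Tfb2m (adjusted p = 0.149).

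Lrpprc, which with Slirp stabilises mitochondrial messenger RNAs, averaged 84.5 ± 2.72 CPM in PRODH TAC, 51.9 ± 5.45 CPM in vector TAC, 91.9 ± 7.58 CPM in PRODH sham and 95.5 ± 9.87 CPM in vector sham (SD, n = 4). Vector TAC stood apart from the other groups. Its TAC effect was -0.88 ± 0.08 under vector and -0.12 ± 0.08 under PRODH (adjusted p = 0.249), and these differed (0.76 ± 0.11, adjusted p = 9.58e-06). Slirp fell under both viruses (-0.40 ± 0.09 under vector and -0.28 ± 0.09 under PRODH) and was at 0.06 ± 0.09 for PRODH against vector after TAC (adjusted p = 0.634). For replication, the helicase gene Twnk fell by 0.77 (± 0.09) under vector and by 0.28 (± 0.09) under PRODH, and the polymerase gene Polg fell by 0.20 (± 0.08) under vector and was at -0.01 ± 0.08 under PRODH. Of 14 replication genes, 10 were lower after TAC under vector, against 26.2% of all tested genes. After TAC under PRODH 4 were lower and 1 higher, against 17.8% and 17.2% of all tested genes. With PRODH after TAC 5 were higher and 1 lower, against 18.5% and 24.6%.

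**Figure D5:**
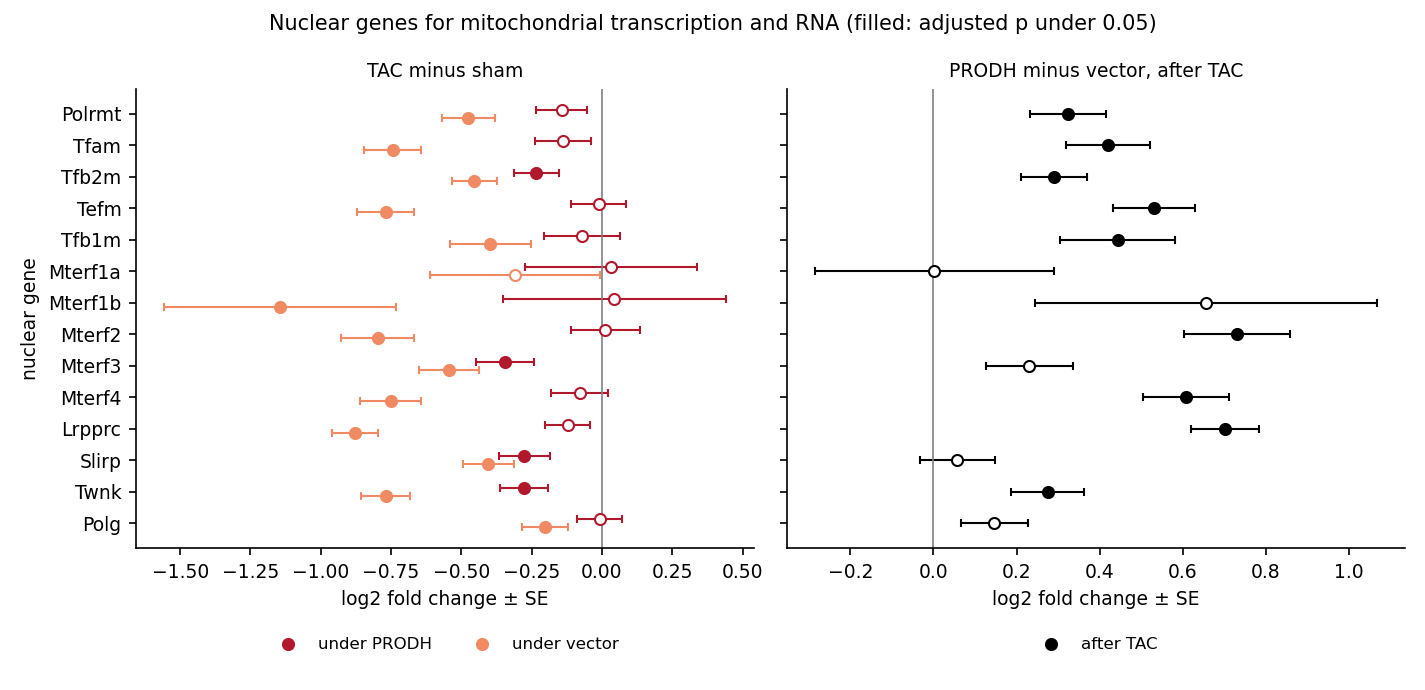
Log2 fold change with SE (horizontal axes) of 14 nuclear genes for mitochondrial transcription, RNA stability and replication, for TAC minus sham under each virus and for PRODH minus vector after TAC. Filled points passed an adjusted p of 0.05. The 14 are the whole transcription list with Lrpprc, Slirp, Twnk and Polg. Under vector 13 of them fell, against 26.2% of all tested genes, and under PRODH 4 did, against 17.8%.

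Lists for the further steps were counted in the same way, against the same shares of all tested genes. These are 26.2% lower after TAC under vector, 17.8% lower after TAC under PRODH and 18.5% higher with PRODH after TAC. Of 25 genes for mitochondrial RNA processing, 21 were lower and 1 higher after TAC under vector, 15 were lower after TAC under PRODH, and 11 were higher and 2 lower with PRODH after TAC. Of 13 translation factors all 13 were lower after TAC under vector, 6 were lower after TAC under PRODH, and 7 were higher with PRODH after TAC. Without vector TAC libraries 3 and 4 these 7 became 4, where 1751 of all 14469 genes tested were higher. Of 20 genes that charge mitochondrial tRNAs, 16 were lower after TAC under vector, 10 were lower after TAC under PRODH and 7 were higher with PRODH after TAC. Of 11 genes that modify them, 9, 5 and 4 passed in the same directions. The smallest p-values after TAC under vector were those of the elongation factors Gfm1 (-0.74 ± 0.07) and Tufm (-0.66 ± 0.07), the pyrimidine nucleotide carrier Slc25a33 (-0.96 ± 0.10) and the mitoribosomal protein Ptcd3 (-0.72 ± 0.08). For PRODH against vector after TAC they were those of the tRNA-modifying enzyme Osgepl1 (0.79 ± 0.08), the RNA granule protein Fastkd2 (0.59 ± 0.08), the complex IV translation activator Taco1 (0.64 ± 0.09) and the RNA-degrading enzyme Pnpt1 (1.1 ± 0.14). Slc25a33 (0.19 ± 0.10) and Tufm (0.08 ± 0.07) did not pass there.

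Nuclear genes encode the other subunits of the same respiratory complexes. After TAC under vector 37 of 37 complex I genes, 4 of 4 complex II, 9 of 9 complex III, 11 of 11 complex IV and 13 of 14 ATP synthase genes were lower, and after TAC under PRODH 36, 4, 9, 11 and 13 were. Of all tested genes 26.2% were lower after TAC under vector and 17.8% under PRODH. Between PRODH and vector after TAC 6 of the 37 complex I genes were higher and 4 lower, with a median of -0.05, which is no more than the 18.5% and 24.6% of all tested genes. Ndufs4 of complex I (-0.77 ± 0.07 for TAC under vector and -0.31 ± 0.07 under PRODH) and Sdha of complex II (-0.95 ± 0.08 and -0.42 ± 0.08) were higher with PRODH after TAC, at 0.34 ± 0.07 and 0.50 ± 0.08. Uqcrfs1 of complex III (-0.77 ± 0.07 and -0.63 ± 0.07), Cox7a1 of complex IV (-1.04 ± 0.09 and -0.76 ± 0.09) and Atp5a1 of the ATP synthase (-0.75 ± 0.07 and -0.57 ± 0.07) fell under both viruses and did not pass between PRODH and vector after TAC (0.04 ± 0.07, 0.17 ± 0.09 and 0.14 ± 0.07). After sham neither edgeR nor DESeq2 called any of these nuclear genes between PRODH and vector, and none had an unadjusted p under 0.05. In the libraries compared, all 12 fibroblast and all 12 endothelial markers were higher after TAC under vector, against 30.3% of all tested genes. They were lower with PRODH after TAC (24.6%), and 10 and 9 of them were higher after TAC under PRODH (17.2%). Of the 9 mural cell markers 6 were higher and 2 lower after TAC under vector, and 7 were higher under PRODH. With PRODH after TAC 2 mural cell markers were higher and 5 lower. For the cardiomyocyte markers, 9 of 10 were lower after TAC under vector and 7 under PRODH, where 1 was higher. With PRODH after TAC 4 of the 10 cardiomyocyte markers were higher and 1 lower than with vector.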

How the data were processed

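RNA from isolated heart cells was sequenced in 16 libraries, 4 in each of 4 groups taken from the labels. The deposited table holds estimated counts (expected counts, fractional in 9538 of 57010 gene models) that the authors made per gene, as the values of the deposited file show. The sources used here name no aligner, counter, strand setting or build. Counts were rounded. Library totals were 15987580 to 22680212 counts, so the abundant genes are limited by the spread between libraries and the tRNA genes by counting error. The low-count filter (edgeR's filterByExpr, at least 10 counts and a total of 15) kept 14066 genes, which were scaled by TMM and tested with edgeR 4.0.16 (robust quasi-likelihood, R 4.3.3) over all 16 libraries without a replicate block. Benjamini-Hochberg adjustment was used, with a threshold of 0.05. The procedure was tested on simulated data. Shares were compared by exact two-sided permutation tests (SciPy 1.17.1).

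Coordinates and sequences came from GENCODE M21 (GRCm38) by gene identifier, of which 52029 of 57010 were found. Pairs are a parent gene and its nuclear copy with their counts added before the fit. Alternatives were scaling by library size alone or by genes outside the 43, no filter, only the groups compared, DESeq2 1.42.0, a replicate block, copies added to parents, and each library left out. Vector TAC libraries 3 and 4 were also left out together, which for the pairs and the nuclear lists was chosen after seeing the data.

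The 43 genes and all lists were chosen with earlier results of these data known. All mitochondrial protein and rRNA genes, the copies, Prodh, and tRNA genes that passed the filter or had the 3 highest counts below it could be named. Of the nuclear lists, 8 transcription, stability and replication genes were always named, with up to 4 others per comparison and 2 per respiratory complex by smallest p.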

Additional observations from a re-analysis of the deposited data

Results flagged for a closer look

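In 4 genes the TAC effect under PRODH differed from that under vector by edgeR's interaction test. The interaction was 0.84 on the log2 scale for Gm10222 (adjusted p = 3.22e-05), 0.68 for mt-Nd4l (adjusted p = 0.0116), -0.40 for mt-Rnr1 (adjusted p = 0.0128) and -1.18 for mt-Ts1 (adjusted p = 0.0112).

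In 8 of 128 sets of 4 libraries, 1 library lay far from the other 3 by Dixon's criterion, where chance gives about 1 in 20. Gm10925 was at 28.7 kCPM (kilo-CPM) in PRODH TAC library 2, against 30.3 to 30.6 in the others. Gm29216 was at 14.7 kCPM in vector TAC library 1, against 18.8 to 19.6. In PRODH sham, mt-Co2 was at 5.13 kCPM in library 4, against 3.41 to 3.68, and mt-Nd4 at 39.5 kCPM in library 1, against 42.3 to 42.9. In vector sham library 2, mt-Rnr2 was at 7.22 kCPM, against 9.46 to 9.55. Of the tRNA genes, mt-Tp was at 0.839 CPM in vector TAC library 3, against 0.416 to 0.488, and mt-Tq at 2.23 CPM in PRODH sham library 4, against 1.58 to 1.68. The share of the mt-Nd4l pair at Gm10222 was 42.2% in PRODH sham library 4, against 44.8% to 45.0%.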

How the results depend on the processing

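Of 125 values (25 genes in 5 comparisons), 99 kept their call under library size alone and 123 when scaled by genes outside the 43. The call was kept by 122 without a filter, 122 with DESeq2 and 117 without vector TAC libraries 3 and 4. A kept call means the same side of the threshold, with direction compared only where either fit passed it. Under library size alone the genes lower after TAC numbered 11 under vector (20 under TMM) and 10 under PRODH (22), and 8 were higher with PRODH after TAC (3). Of the genes called under TMM, signs turned there for mt-Rnr1 (0.0774), mt-Rnr2 (0.0887) and Gm28438 (0.0180) under vector. Under PRODH they turned for mt-Nd4l (0.0138), Gm10222 (0.109) and Gm28437 (0.00923). The number higher with PRODH after TAC was 5 when scaled by genes outside the 43, 5 without a filter, 5 with DESeq2 and 6 with only the groups compared. After sham, only the groups compared left 0 higher by edgeR (1 in the fit of all libraries, 1 with DESeq2 and 2 at an unadjusted p under 0.05). With copies added, 1 interaction passed upward (2).

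Without vector TAC libraries 3 and 4, edgeR called 0 of the 25 lower with PRODH after TAC (3; DESeq2 on all libraries 3, unadjusted 5) and 0 interactions downward (2; DESeq2 2, unadjusted 3), while 3 interactions passed upward (2), mt-Nd3 being the added one. Of pairs and protein genes, for which this setting was added after seeing the data, as for the nuclear lists, 1 was higher (2) and 0 lower (1), 4 translation factors were higher (7) and 1 RNA processing gene was lower (2). Calls over all tested genes were fewer in that setting too. With PRODH after TAC they went from 2603 higher and 3456 lower to 1751 and 2507. Interactions went from 1540 upward and 2224 downward to 1142 and 1659. The cause was not tested.

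Same-numbered libraries deviated together only weakly (r from -0.13 to 0.17). Pairs of libraries numbered 1 were all positive (0.03 to 0.17), and those of the other numbers lay on both sides of 0. Pairs with unlike numbers were not set beside them, so whether same-numbered libraries share more than a number is not settled. With the replicate block 5 genes were lower with PRODH after TAC (3) and 2 higher after sham (1), 20 were lower after TAC under PRODH (22) and 3 interactions passed downward (2).

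With 1 library left out, the difference in share ran from -7.25 to -5.80 points under vector and from -6.46 to -5.21 under PRODH (exact p = 0.0571, the smallest possible with 3 against 4). Genes with PRODH after TAC numbered 3 to 6 higher and 2 to 5 lower, after sham 0 to 1 in either direction, and interactions 2 to 4 upward and 1 to 2 downward. In these fits no direction turned where the full or the reduced fit called the gene. Some values called in neither changed sign, such as Gm29216 for PRODH against vector after sham (-0.27 to 0.04). The tRNA genes are limited by depth.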
